A study of Rattus norvegicus with 6 samples.

Results

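A group of 10 genes of the Notch signalling pathway was followed in the vestibular sensory epithelium of the rat: the ligands Jag1, Jag2, Dll1 and Dner, the receptors Notch1 and Notch2, the receptor-modifying enzyme Lfng, and the target genes Hes1, Hes5 and Hey1. They were found by their symbol in a count table of 32883 genes, in which each of the 10 symbols matched a single row. RNA-seq counts were obtained from adult male Long-Evans rats. The Control group of 3 rats had plain drinking water, and the IDPN-4wk group of 3 rats had 3,3'-iminodipropionitrile (IDPN) at 20 mM in it for 4 weeks. This nitrile damages the mechanosensory hair cells (HCs). Each library came from the pooled utricles and cristae of 1 animal. Whole tissue was sequenced, so fewer cells of a type and less RNA per cell cannot be told apart.

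Notch signalling passes between cells that touch. A ligand of the Delta or Jagged type on the surface of a cell binds a Notch receptor on its neighbour, proteases cut the receptor, and the freed intracellular part enters the nucleus, where it joins the DNA-binding protein RBPJ and switches on target genes such as those of the Hes and Hey families. In the developing inner ear, ligand on the young HC keeps the cells around it from becoming HCs, and they become supporting cells, while JAG1 acts earlier to set out the sensory patches.

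The depth of the libraries ranged from 13358678 to 18561991 counts. Of all genes, 14352 held enough counts to be tested, and 9 of the 10 Notch genes were among them, the exception being Hes5. Values are given as CPM, counts relative to library size after scaling the libraries with the TMM method, and are compared only within a gene, since they are not corrected for gene length. The scaling factors ran from 0.955 to 0.968 in Control and from 1.03 to 1.05 in IDPN-4wk libraries, and all genes together had a median log2-Fold change of 0.02. A gene was called lower or higher when its adjusted p (Padj, edgeR's quasi-likelihood test) was under 0.05 and its fold change over 1.5. The animal codes in the sample titles share a prefix within the IDPN-4wk group that no Control rat has. What the prefix marks is not stated, and its part cannot be told apart from that of the treatment.

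Of the 9 genes tested, 2 were called lower in IDPN-4wk rats, Dner and Dll1, where 6.62% of all tested genes were called lower. None was called higher, against 3.09% of all genes. With Padj alone, without the fold change threshold, the same 2 were lower and Notch1 was higher, against 11.5% and 7.89% of all genes. The DESeq2 test with both thresholds also called 2 lower and 0 higher, and 5 of the 9 had an unadjusted edgeR p under 0.05 (Dner, Dll1, Notch1, Lfng and Hes1), as did 33.1% of all genes. The libraries of the groups did not overlap for 4 of the 9 (Dner, Dll1, Notch1 and Hey1), while 37.8% of all genes had no overlap. The log2-Fold change was negative for 6 genes and positive for 3, with a median of -0.04.

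**Figure D1:**
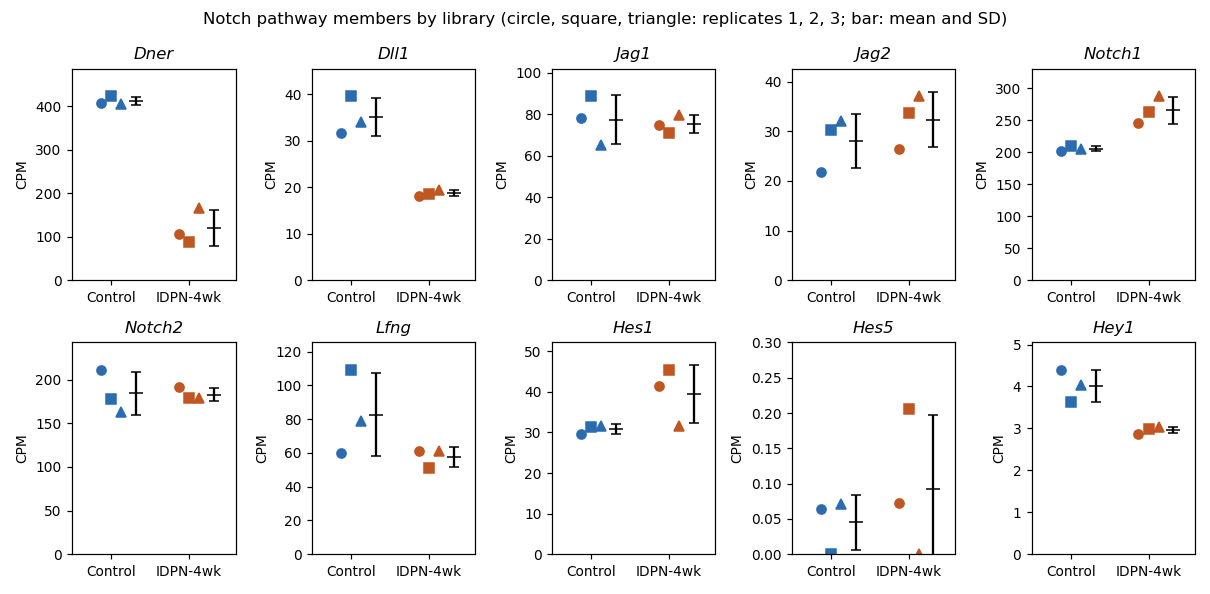
CPM of the 10 Notch genes in each library, with Control in blue and IDPN-4wk in orange, replicates 1 to 3 (not matched across groups) as circle, square and triangle, and the bar giving the mean and SD of 3 rats. Each panel has its own CPM axis starting at 0; Dner and Dll1 sit lower in all IDPN-4wk libraries, and Notch1 sits higher.

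RBPJ, the DNA-binding partner of Notch, is known to bind the motif GTGGGAA and its shorter core TGGGAA, and the promoters of the Notch genes were searched for both. Those of the called genes (Dll1, Dner) and of the targets Hes1 and Hes5 are shown, and all 4 hold a match. The promoters of Jag1, Jag2, Notch1 and Notch2 held neither motif and are not printed. Capitals mark every match on either strand (TTCCCAC and TTCCCA on the other strand; TGGGAA lies inside GTGGGAA). The sequences are the 250 bases before the transcription start, 5′ to 3′ on the strand of the gene, from RefSeq in the build GRCr8. Hes1 lies at chr11:84213046-84213295 on the minus strand, Hes5 at chr5:170804327-170804576 on the plus strand, Dll1 at chr1:64993275-64993524 on the minus strand and Dner at chr9:93350569-93350818 on the minus strand.
Hes1: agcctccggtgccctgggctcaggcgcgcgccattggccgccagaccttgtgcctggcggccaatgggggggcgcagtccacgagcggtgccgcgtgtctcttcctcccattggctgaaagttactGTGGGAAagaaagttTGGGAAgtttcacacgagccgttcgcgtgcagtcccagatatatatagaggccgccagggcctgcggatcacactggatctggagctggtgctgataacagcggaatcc
Hes5: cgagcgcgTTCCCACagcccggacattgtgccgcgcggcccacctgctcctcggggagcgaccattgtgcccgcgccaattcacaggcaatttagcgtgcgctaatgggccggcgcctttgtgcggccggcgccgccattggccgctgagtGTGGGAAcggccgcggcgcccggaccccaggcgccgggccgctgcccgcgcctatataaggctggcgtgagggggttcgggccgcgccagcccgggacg
Dll1: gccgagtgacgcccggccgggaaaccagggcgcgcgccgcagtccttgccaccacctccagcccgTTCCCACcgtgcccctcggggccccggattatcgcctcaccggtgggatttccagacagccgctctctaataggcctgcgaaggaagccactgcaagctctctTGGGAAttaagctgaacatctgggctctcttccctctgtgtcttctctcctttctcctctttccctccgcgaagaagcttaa
Dner: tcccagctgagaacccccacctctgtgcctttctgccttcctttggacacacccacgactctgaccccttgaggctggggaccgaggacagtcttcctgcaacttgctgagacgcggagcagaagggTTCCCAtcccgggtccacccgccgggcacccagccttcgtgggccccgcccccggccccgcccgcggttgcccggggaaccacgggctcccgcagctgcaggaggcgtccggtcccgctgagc

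In Hes1 the matches started 124 and 109 bases before the start, on the same strand, with 8 bases between the TGGGAA cores. Hes5 held GTGGGAA on opposite strands, 242 and 99 bases before its start. Dll1 held GTGGGAA on the other strand 185 bases before the start and the shorter core 82 bases before it, and Dner held only the shorter core, 123 bases before its start. Of the 10 genes, 9 had a promoter entry in the table, and Hey1 had none. Jag2 had a pair of entries, which made 10 promoters. GTGGGAA was present in 4 of these 10 promoters (Hes1, Hes5, Dll1 and Lfng) and in 5.27% of all 33469 promoters of the same length. The core TGGGAA was present in 5 of the 10 and in 22.1% of all promoters. The Notch promoters had a median GC content of 69.0% against 51.2% for all. A match is a description of the letters only. Promoters with a match belonged to genes called lower (Dll1, Dner), to genes not called (Hes1, Lfng) and to a gene nearly undetected (Hes5).

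Dner, which encodes a Delta/Notch-like protein with EGF repeats made by HCs and neurons and with a role in the maturation of the stereocilia bundle, showed the largest change of the 10. Its level was 408, 423 and 406 CPM in the Control rats and 106, 88.2 and 166 CPM in the IDPN-4wk rats. The Control rats were nearly equal, and every treated rat lay far below them, with replicate 3 the least reduced. The mean was 412 ± 9.29 CPM (SD, n = 3) in Control and 120.1 ± 40.9 CPM (SD, n = 3) in IDPN-4wk, 29.1% of the Control level. The log2-Fold change was -1.78 (SE 0.18, 95% interval -2.18 to -1.38, edgeR Padj = 0.000120). It ranged from -2.10 without IDPN-4wk replicate 3 to -1.60 without IDPN-4wk replicate 2, and the call held in each case.

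Dll1, a Delta ligand that young HCs display to their neighbours, was called lower as well. It measured 31.6, 39.6 and 34.1 CPM in Control and 18.2, 18.6 and 19.4 CPM in IDPN-4wk rats. The treated rats lay close together, all below the lowest Control rat. Mean levels were 35.1 ± 4.05 CPM (SD, n = 3) and 18.7 ± 0.607 CPM (SD, n = 3), so that IDPN-4wk stood at 53.3% of Control. The log2-Fold change was -0.91 (SE 0.12, 95% interval -1.16 to -0.65, edgeR Padj = 0.000411). The call was lost in a stricter test, edgeR's glmTreat, of whether the change itself exceeds 1.5-fold (Padj = 0.0585).

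Neither Jagged ligand was called. Jag2, the Jagged ligand that accompanies Dll1 on young HCs, had 21.8, 30.2 and 31.99 CPM in Control and 26.4, 33.7 and 37.1 CPM in IDPN-4wk rats. The groups overlapped, and the log2-Fold change of 0.21 had a 95% interval from -0.15 to 0.57 (edgeR Padj = 0.399). It was not called with any library left out, but ranged from 0.060 without Control replicate 1 to 0.33 without IDPN-4wk replicate 1. Jag1, the ligand that supporting cells keep in the mature epithelium, had 78.1, 88.7 and 65.3 CPM in Control and 74.8, 70.9 and 79.7 CPM in IDPN-4wk rats. Its treated rats all lay within the Control range, with a log2-Fold change of -0.04 and a 95% interval from -0.28 to 0.19 (edgeR Padj = 0.821). Its sign turned when libraries were scaled by their total alone (0.07), a scaling that moved the median of all genes to 0.13, and when Control replicate 2 was left out.

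The receptors differed from each other in their values. Notch1, the receptor most studied in this epithelium, measured 203, 209 and 205 CPM in Control and 246, 263 and 288 CPM in IDPN-4wk rats. All treated rats lay above all Control rats, which were again tightly grouped. The mean was 206 ± 3.37 CPM (SD, n = 3) in Control and 265 ± 21.1 CPM (SD, n = 3) in IDPN-4wk, 129% of Control. The log2-Fold change of 0.37 (SE 0.08, 95% interval 0.20 to 0.53) passed Padj (edgeR, 0.00691) but stayed under the fold change threshold.

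Notch2 had 211, 178 and 163 CPM in Control and 191, 178 and 179 CPM in IDPN-4wk rats. The treated rats lay inside the Control range, the log2-Fold change was -0.01, and its 95% interval ran from -0.22 to 0.20 (edgeR Padj = 0.951). Its sign turned under upper quartile scaling, under scaling by library total and when Control replicate 1 or IDPN-4wk replicate 2 was left out. The difference between the responses of the receptors was not tested.

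Lfng encodes lunatic fringe, a glycosyltransferase that adds sugar to Notch receptors and so alters which ligands they answer to. It measured 60.2, 109 and 78.7 CPM in Control and 61.0, 50.9 and 61.0 CPM in IDPN-4wk rats. Control replicate 1 lay at the level of the treated rats, so the groups overlapped. The log2-Fold change was -0.52 (SE 0.18, 95% interval -0.91 to -0.13, edgeR Padj = 0.0606). Whether it was called depended on single Control libraries: without replicate 1 it was called lower (-0.71, edgeR Padj = 0.00734), and without replicate 2 the difference shrank to -0.27 (edgeR Padj = 0.210). Lfng passed Padj in the DESeq2 test (0.00933) and in edgeR without the filter on low counts (0.0301). In both it stayed under the fold change threshold.

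Hes1, a repressor of the bHLH family and a classic Notch target whose promoter is printed above, had 29.5, 31.2 and 31.7 CPM in Control and 41.4, 45.4 and 31.6 CPM in IDPN-4wk rats. Replicates 1 and 2 of the treated rats lay above all controls, and replicate 3 lay among them. The log2-Fold change was 0.36 (SE 0.13, 95% interval 0.07 to 0.65, edgeR Padj = 0.0783). Without IDPN-4wk replicate 3 it was 0.48 (edgeR Padj = 0.00831), which stayed under the fold change threshold, and without IDPN-4wk replicate 2 it was 0.24 (edgeR Padj = 0.257). Replicate 3 also had the highest Dner among the treated rats.

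Hey1, a related repressor, was low, with 68, 52 and 57 counts in Control and 40, 58 and 47 counts in IDPN-4wk rats. After scaling these were 4.39, 3.63 and 4.03 CPM against 2.88, 2.99 and 3.03 CPM. The scaled values did not overlap, but the log2-Fold change of -0.44 had a wide 95% interval from -0.97 to 0.10 (edgeR Padj = 0.240). Hes5, the target most closely tied to Notch activity in the developing sensory patches, was nearly undetected, with 1, 0 and 1 counts in Control and 1, 4 and 0 counts in IDPN-4wk rats. A count of 0 allows up to 3 counts, from 0.155 to 0.216 CPM depending on the library, so differences in Hes5 of that size could not be seen. Without the filter on low counts Hes5 was tested and not called. Such limits cover counting error only.

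The remaining genes of the pathway were read from a list of 66, of which 61 were in the table and 56 were tested. Of these, 3 were called lower (Fbxw7, Nov and Dlk2), 1 was called higher (Mfap5) and 52 were not called. Both shares lay below those of all tested genes, 6.62% and 3.09%. The median log2-Fold change was 0.01, with 26 genes negative and 30 positive, and 18 of the 56 showed no overlap between groups, against 37.8% of all genes. With Padj alone 6 were lower and 5 higher, against 11.5% and 7.89% of all genes, so these counts lay near the background. The 5 higher genes were Furin, Mfap5, Hdac1, Hdac2 and Ctbp1, of which Ctbp1 was named after its value was seen.

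**Figure D2:**
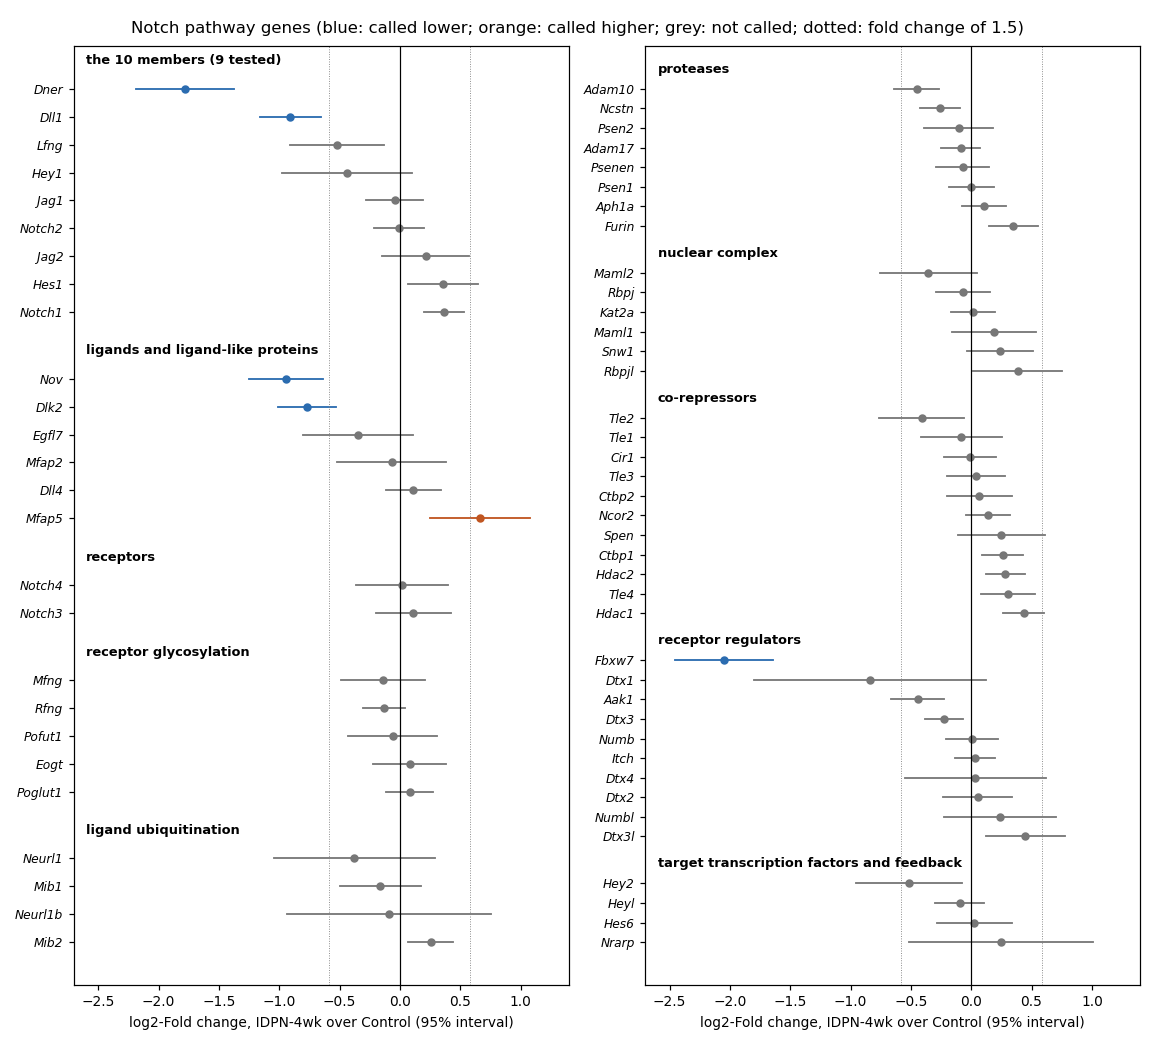
log2-Fold change (IDPN-4wk over Control, 3 rats per group) of the 9 tested Notch genes and of the 56 other tested pathway genes, grouped by role, with 95% intervals as lines and dotted lines at a fold change of 1.5. Called lower genes are blue, called higher genes orange and the others grey; Fbxw7 (-2.05) and Dner (-1.78) lie farthest from 0.

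Fbxw7, the substrate-binding part of a ubiquitin ligase that marks the active Notch intracellular part and several other proteins for destruction, changed the most of all tested pathway genes. Its level was 33.6, 29.2 and 33.7 CPM in Control and 7.26, 5.88 and 10.3 CPM in IDPN-4wk rats. All treated rats were far below the controls, and the log2-Fold change was -2.05 with an SE of 0.18 (edgeR Padj = 5.44e-05). It stayed between -2.31 and -1.87 when any library was left out. The paper marks Fbxw7 as selectively expressed in HCs. Fbxw7 stood at 24.3% of Control, where the summed HC markers described below stood at 67.4% and the lowest of them, Pcdh15, at 11.6%. Aak1, a kinase of endocytosis in the same list of receptor regulators, passed Padj alone, with a log2-Fold change of -0.44 (edgeR Padj = 0.0112).

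Among ligand-like proteins, Nov (also CCN3), a matricellular protein that can bind Notch, averaged 189.6 ± 36.5 CPM (SD, n = 3) in Control and 98.4 ± 12.98 CPM (SD, n = 3) in IDPN-4wk rats. Its log2-Fold change was -0.94 (edgeR Padj = 0.00105; 0.0795 with glmTreat). Dlk2, a Delta-like protein that lacks the domain by which classic ligands bind Notch, averaged 48.2 ± 1.37 and 28.3 ± 3.87 CPM (SD, n = 3 each), with a log2-Fold change of -0.77 (edgeR Padj = 0.000860; 0.307 with glmTreat). Mfap5, a microfibril protein reported to bind Jagged ligands and Notch, averaged 7.71 ± 1.75 and 12.2 ± 0.711 CPM (SD, n = 3 each), and its log2-Fold change was 0.66 (edgeR Padj = 0.0317). The Mfap5 call was fragile: it was kept without Control replicate 2 (Padj = 0.0247) and lost when any of the other 5 libraries was left out, with edgeR Padj from 0.0610 to 0.107.

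The cutting of the receptor involves Furin, which processes it on its way to the surface, then ADAM10 and the gamma-secretase complex. Of the 8 proteases and subunits tested none was called. Adam10 averaged 100.2 ± 3.53 CPM (SD, n = 3) in Control and 73.4 ± 7.18 CPM (SD, n = 3) in IDPN-4wk rats, a log2-Fold change of -0.45 that passed Padj alone (edgeR, 0.00421). Furin was higher by a log2-Fold change of 0.35 and also passed Padj alone (edgeR, 0.0240). Ncstn, which encodes the gamma-secretase subunit nicastrin, was lower by Padj alone, with a log2-Fold change of -0.26 (edgeR Padj = 0.0378), and was named after its value was seen. Adam10 passed Padj with any library left out, while Furin and Ncstn each failed it in 4 of 6 such fits, with edgeR Padj up to 0.0933 and 0.124. Ncstn also failed it with upper quartile scaling (0.0593) and library totals alone (0.157).

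In the nucleus, Rbpj itself had a log2-Fold change of -0.07 with a 95% interval from -0.29 to 0.16 (edgeR Padj = 0.685, named after its value was seen). None of the 6 tested genes of the nuclear complex was called, with log2-Fold changes from -0.36 to 0.38. Among the 11 co-repressors none was called, while the histone deacetylases Hdac1 (0.44, edgeR Padj = 0.00300) and Hdac2 (0.28, edgeR Padj = 0.0198) passed Padj alone. With 1 library left out, Hdac1 passed in all 6 fits, while Hdac2 failed in 4 and Ctbp1 in 5, with edgeR Padj up to 0.0802 and 0.120. The 2 other receptors tested, Notch3 (0.11, edgeR Padj = 0.623) and Notch4 (0.02, edgeR Padj = 0.951), were not called.

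The 5 enzymes of receptor glycosylation lay between -0.14 and 0.08 and the 4 of ligand ubiquitination between -0.38 and 0.25, with none called. Of 4 further targets and feedback genes tested none was called, among them Hey2 (-0.51, edgeR Padj = 0.0969) and Heyl (-0.09, edgeR Padj = 0.518). Another 3 of that list, Hes2, Hes3 and Hes7, had too few counts to be tested.

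Factors that Notch restrains or maintains in this epithelium were read as well, from a list of which 6 were tested, 1 was called lower (Atoh1) and 5 were not called (median log2-Fold change -0.04). Atoh1, the transcription factor that starts HC differentiation, measured 4.46, 8.11 and 6.58 CPM in Control and 3.59, 3.40 and 2.96 CPM in IDPN-4wk rats. No treated rat reached the lowest Control rat, and the log2-Fold change was -0.94 (SE 0.27, edgeR Padj = 0.0308). The call was kept without Control replicate 1 and lost when any of the other 5 libraries was left out, with edgeR Padj from 0.0641 to 0.126, and it was also lost with glmTreat (Padj = 0.496). Sox2, a factor of progenitors and supporting cells, was not called, with 9.22 ± 0.749 CPM (SD, n = 3) in Control and 7.63 ± 1.26 CPM (SD, n = 3) in IDPN-4wk rats (log2-Fold change -0.27, edgeR Padj = 0.347).

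Markers of both epithelial cell types were mostly lower in IDPN-4wk rats, where 6.62% of all tested genes were called lower and 3.09% higher. Of 15 HC markers, 8 were called lower and 0 higher, and their summed level ranged from 3716 to 3845 CPM in Control and from 2370 to 2823 CPM in IDPN-4wk rats, 67.4% of Control. The HC markers were uneven, with log2-Fold changes from -3.09 (Pcdh15) to -0.07 (Gfi1). Ush1c, which gave the most counts to the sum (1267 CPM in Control), stood at 88.2% of Control, while Loxhd1 (28.8%), Calb2 (22.4%) and Pcdh15 (11.6%) stood as low as Dner (29.1%) or lower. These markers were named after their values were seen. Of 12 supporting cell markers, 6 were called lower and 0 higher, with a sum from 13160 to 14647 CPM in Control and from 7519 to 9096 CPM in IDPN-4wk rats, 60.2% of Control. No marker of either list was at 0. Otog, which encodes otogelin of the overlying membranes, made up much of the supporting cell sum, while Sox9, a transcription factor of supporting cells, had a positive log2-Fold change of 0.24 (edgeR Padj = 0.0540).

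Other cell types were also measured: the summed markers stood at 90.4% of Control for endothelium (8 genes tested, 1 called lower), 97.2% for mural cells (6, 2 lower), 106% for macrophages (7, 1 higher) and 93.8% for stroma (6, 1 lower and 1 higher). They stood at 77.9% for Schwann cells (7, 1 lower), 64.3% for neurons (6, 2 lower and 1 higher) and 58.5% for dark cells and melanocytes (6, 3 lower). Their part in the Notch gene results was not tested.

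To set each Notch gene beside the cells of the epithelium, its CPM was divided by the summed markers of the same library. Of 18 such log2 ratios computed, 6 are plotted. The exact two-sided permutation test cannot go below p = 0.1 with 3 rats against 3, which is p = 0.138 after Benjamini-Hochberg adjustment over the 18.

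Dner relative to HC markers was -3.19, -3.18 and -3.20 in Control and -4.48, -4.78 and -4.09 in IDPN-4wk rats. The Control rats differed by almost nothing, and the group difference was -1.26, or 41.8% of Control (exact permutation p = 0.1). This holds against the sum, in which Ush1c weighs most, and not against every HC marker, since 3 of the 15 stood lower than Dner relative to Control. Dll1 relative to HC markers differed by -0.33, with no overlap (exact permutation p = 0.1). With the mean of the log2 marker levels in place of their sum, Dll1 differed by 0.044 and Dner by -0.89. Jag2 relative to HC markers differed by 0.79, with no overlap (exact permutation p = 0.1). For scale, Notch2 and Jag1, whose own log2-Fold changes were -0.01 and -0.04, differed by 0.57 and 0.54 relative to HC markers, since the marker sum was lower in IDPN-4wk rats.

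Relative to supporting cell markers, Notch1 differed by 1.10 and Hes1 by 1.08, both with no overlap between groups (exact permutation p = 0.1 each). Notch2 and Jag1 differed by 0.73 and 0.70 against the same sum, also with no overlap, since that sum stood at 60.2% of Control. Lfng differed by 0.25 with overlap (exact permutation p = 0.3), by 0.075 without Control replicate 1 and by 0.43 without Control replicate 2. These values depended on the markers chosen: relative to Sox9 alone, Notch1 differed by 0.12, Hes1 by 0.10 and Lfng by -0.72.

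**Figure D3:**
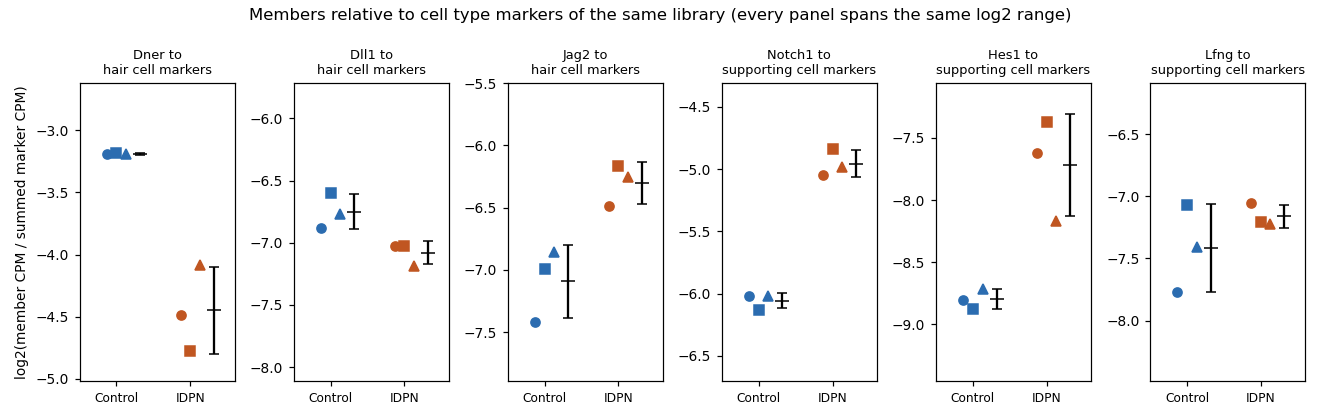
log2 ratio of 6 Notch genes to the summed CPM of HC or supporting cell markers of the same library, for Control (blue) and IDPN-4wk (orange) rats, with replicates 1 to 3 (not matched across groups) as circle, square and triangle and the mean and SD of 3 rats as bars. Dner lies lower against HC markers (-1.26), Jag2 (0.79), Notch1 (1.10) and Hes1 (1.08) lie higher against theirs, and the Lfng groups overlap.

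For the called genes, the tested genes with the most similar pattern over the 6 libraries were sought by the Pearson correlation of log2 CPM. The 6 libraries carry the group difference, so any gene that differs between the groups can score high, and the measure takes no account of the size of the change. Closest to Dner were Ivns1abp (0.999), Nans (0.999) and Ptprm (0.998), a receptor-type tyrosine phosphatase. Ivns1abp and Nans were not called, with log2-Fold changes of -0.57 and -0.26, and Ptprm was called lower (-1.39). Closest to Dll1 were Tmsb15b2 (1.00), Calm2 (0.999), which encodes calmodulin, and Efcab6 (0.998).

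**Figure D4:**
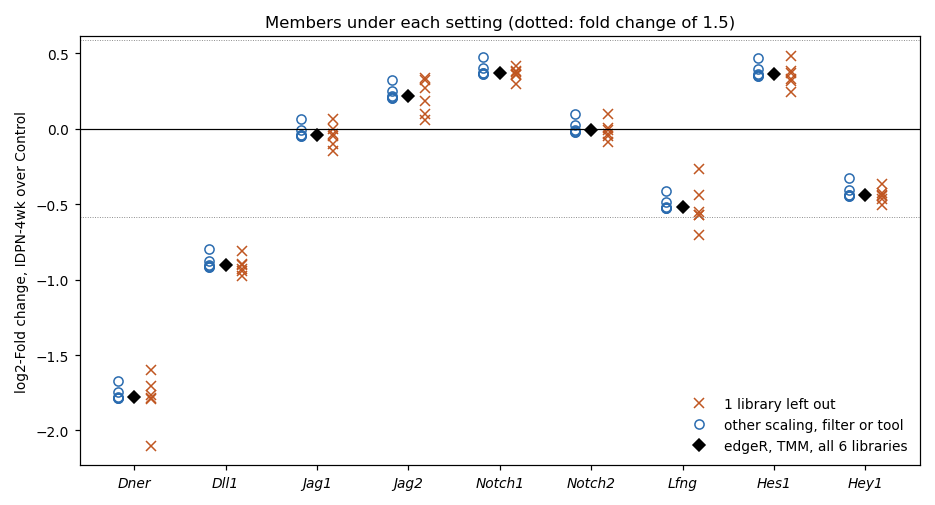
log2-Fold change (IDPN-4wk over Control) of the 9 tested Notch genes under each setting: black diamonds for edgeR with TMM and all 6 libraries, blue circles for another scaling, filter or tool, and orange crosses for 1 library left out. Dner (from -2.10 to -1.60 with 1 library left out) and Dll1 stay beyond the dotted line at a fold change of 1.5 in every setting, Lfng crosses it without Control replicate 1, and Jag1 and Notch2 straddle 0.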

How the data were processed

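RNA was taken from pooled utricles and cristae of each rat and reverse transcribed by the SMART-seq2 protocol, which does not keep the strand. Per the submitters' processing notes, reads were mapped with STAR 2.5.3a and quantified with RSEM 1.3.0; the methods name the rat build Rnor6.0. The authors deposited expected counts per gene, which were whole numbers, so rounding changed 0 of them. Reads that fit more than a single gene are divided among them by RSEM, so close paralogs are less certain. Depth was from 13358678 to 18561991 counts per library; reads had no molecular identifiers.

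Samples were grouped by their treatment label. All libraries share a batch label, so the comparison lies within it. No label holds replicate numbers: replicates were numbered by accession order, and a number does not match rats across groups. Low genes were removed by filterByExpr (minimum count 10, total 15), and the rest were scaled with TMM and compared with glmQLFit and glmQLFTest of edgeR 4.0.16 in R 4.3.3, with Benjamini-Hochberg adjustment over 14352 genes. A gene was called at Padj under 0.05 and a fold change over 1.5, the thresholds stated in the study's methods, which used DESeq2. The calls still differ: the paper names Notch1 among its genes upregulated after 4 weeks of IDPN, while here it stayed under the fold change threshold. Alternatives were DESeq2 1.42.0, other scalings and filters, glmTreat and leaving out each library. The test was checked on simulated data. The edgeR p-values weigh the difference between the groups against the spread between animals, which is estimated with information shared across genes. Promoters came from RefSeq (GRCr8), another build than that of the counts; no coordinate was converted.

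The Notch genes, pathway lists and markers were chosen with earlier results of these data known. All 10 Notch genes are named, and of each other pathway list the called genes and at most the 2 others with the smallest p, with Atoh1 and Sox2. Outside this rule, Rbpj, Ctbp1, Ncstn, Tle2 and Dll3 and single HC and supporting cell markers were named after their values were seen. List symbols that matched no row were left out. No values of the authors' own comparisons were used.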

Additional observations from a re-analysis of the deposited data

How the results depend on the processing

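With 2 Notch genes called lower and 0 higher, the other scalings, filters and DESeq2 gave the same counts, as did leaving out any library except Control replicate 1, which added Lfng (3 lower). The glmTreat test called 1 lower (Dner), and Padj alone called 1 higher (Notch1). For the other pathway genes (3 lower, 1 higher), Padj alone gave 6 lower and 5 higher, glmTreat 1 lower (Fbxw7, with Nov and Dlk2 lost) and 0 higher, and leaving out a library 3 to 6 lower and 0 to 1 higher. The 6 arose without IDPN-4wk replicate 3, which added Hey2, Tle2 and Dll3. Over all genes, 950 were called lower and 444 higher, against 780 and 762 with library totals alone, 354 and 99 with glmTreat and 1646 and 1132 with Padj alone. With the mean of log2 marker levels, the ratio to HC markers was 1.16 for Jag2, 0.044 for Dll1 and -0.89 for Dner. The ratio to supporting cell markers was then 0.88 for Notch1, 0.86 for Hes1 and 0.033 for Lfng. With Sox9 alone, the ratios were 0.12 for Notch1, 0.10 for Hes1 and -0.72 for Lfng. The cause was not tested. Of the 10 Notch genes, Hes5 was removed by the filter on low counts and was not called without that filter, and Hey1 had the largest SE (0.24). No paired analysis was made, since each library came from a different rat and no label matches rats across groups.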

Other observations

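The following values were chosen after they were seen. Dll3, a Delta protein that stays inside the cell and dampens Notch signalling, had 10, 15 and 10 counts in Control and 2 counts in each IDPN-4wk rat. It was removed by the filter on low counts, so it has no value in the tests above. It was called lower in the edgeR fit without that filter and in those without Control replicate 1, IDPN-4wk replicate 1 or IDPN-4wk replicate 3. It was not called without IDPN-4wk replicate 2. In the fits with 1 library left out, Dll3 could pass the filter only through the Control rats, where its counts were high. Since Dll3 was also picked for these counts, the calls add no separate support. For the 2 ligands that young HCs share, the log2 ratio of Dll1 to Jag2 CPM was 0.54, 0.39 and 0.09 in Control and -0.54, -0.86 and -0.94 in IDPN-4wk rats, a difference of -1.12 with no overlap that was not tested. The ratio is not corrected for gene length, so only its difference between rats can be read.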
